A study of Penicillium oxalicum with 12 samples.

Results

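The comparison set a strain of the filamentous fungus Penicillium oxalicum that expresses XlnR with the substitution A871V (gXlnRC) against wild type 114-2 (WT), gene by gene. Its members were the genes with a value of at least 1 FPKM (fragments counted on a gene, scaled by its length and by library size) in at least 3 of the 6 libraries of these strains, which 8959 of the 9979 genes in the deposited table met. All strains were grown for 24 h with 2% glucose as carbon source and the mycelium was then starved for 4 h in Vogel's medium that held no carbon source (30 °C, 200 rpm). Poly(A) RNA of the mycelium was sequenced from 3 libraries per strain, which the series describes as biological replicates. Strains that express the chimeric factor CXC (gCXC) or AraR with the substitution A731V (gAraRC), also with 3 libraries each, entered the same fit, so that their spread is part of every standard error. They are used to show where gXlnRC differed from them and to sort genes by level. The promoter and copy number of the introduced variant, whether the resident gene was kept, and how many clones were used are not stated in the labels.

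XlnR is a transcription factor of the fungal zinc binuclear cluster family. In Aspergillus species it is known to switch on genes for extracellular xylanases and cellulases and for the intracellular use of D-xylose when xylan or xylose is present, and glucose represses many of these genes through the repressor CreA. In Trichoderma reesei, an alanine-to-valine substitution in its orthologue Xyr1 is known to allow xylanase expression without an inducer. Wild-type mycelium without a carbon source receives neither the inducer nor glucose. The comparison therefore asked which transcripts the variant changes in mycelium that was given no inducing sugar.

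Genes carry PDE locus tags in the deposited file, and nothing used here links a tag to a gene name, product or position. The identity of a gene is therefore its tag alone. The level of xlnR itself could not be read, so the strain labels were not checked against it, and lists of cellulases, xylanases, sugar-use enzymes, amylases, transporters, regulators or conidiation markers could not be formed.

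The 6 libraries held 16856553, 16890991 and 20092360 reads counted in genes in gXlnRC, and 16671791, 19446399 and 14685371 in WT. Rank correlations across the tested genes were 0.995 to 0.997 between gXlnRC libraries and 0.989 to 0.996 between WT libraries, against 0.942 to 0.949 between libraries of different strains. The summed FPKM was lower in every gXlnRC library (1048260 to 1062791) than in every WT library (1109557 to 1136647). At the edge of the selection, 46 genes had a third-highest value between 1 and 1.1 FPKM, with median means of 0.948 FPKM in gXlnRC and 0.999 FPKM in WT. Another 51 genes fell just short, between 0.9 and 1 FPKM, with median means of 0.876 FPKM in gXlnRC and 0.988 FPKM in WT. Of the 1020 genes left out, 147 were at 0 in all 6 libraries.

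The most raised gene was PDE_08094, with 8474, 8163 and 8429 FPKM in the gXlnRC libraries, against 3.065, 4.463 and 2.982 FPKM in the WT libraries. It was close to silent in WT, where 54 to 107 reads per library were counted on it, and every gXlnRC library held at least 170005. By mean FPKM it stood 12th of all genes in gXlnRC and at rank 8027 in WT. Its log2 change was 10.87 ± 0.13 (limma, SE, Benjamini-Hochberg adjusted p = 7.56e-15, higher in 3 of 3 libraries), and the ratio of the mean FPKM values was 2385. Here and below a log2 change is on the scale of log2(FPKM + 1), which understates the change of a gene with low FPKM.

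PDE_08038 had 2233, 2238 and 2407 FPKM in gXlnRC, against 1.951, 1.798 and 1.827 FPKM in WT. The WT libraries held 33 to 43 reads of it, and it rose by 9.65 ± 0.12 on the log2 scale (limma, adjusted p = 1.02e-14). PDE_04478 was the most abundant transcript of gXlnRC by FPKM, with 45592, 46147 and 48538 FPKM there, against 69.98, 65.82 and 67.88 FPKM in WT. Unlike the previous pair it was clearly expressed in WT, at rank 2408. Its log2 change was 9.41 ± 0.05 (limma, adjusted p = 2.85e-18), and it took 2.97% of the counted reads in gXlnRC and 0.00432% in WT. Its coding length, as recovered from the FPKM steps, was 636 nt.

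The 2 named lowered genes were abundant transcripts of WT, which does not hold for the strongly lowered genes in general. A gene in a run of 6 lowered tags described below had a log2 change of -3.64, from a mean of 23.0 FPKM in WT. For the 75 genes lowered at least 4-fold on the log2(FPKM + 1) scale, the median gene had 41.9 FPKM in WT. In the ratio of mean FPKM some genes with low values fell further, and the genes lowered at least 16-fold numbered 9 with a pseudocount of 0.1. PDE_01191 had 299.0, 356.9 and 300.3 FPKM in gXlnRC, against 5059, 5128 and 5195 FPKM in WT, a log2 change of -4.01 ± 0.14 (limma, adjusted p = 4.38e-10). PDE_01194 had 1266, 1477 and 1101 FPKM in gXlnRC, against 17395, 16456 and 15672 FPKM in WT. Its log2 change was -3.70 ± 0.16 (limma, adjusted p = 3.53e-09), it stood at rank 105 in gXlnRC and rank 6 in WT, and it held 0.0876% of the reads in gXlnRC and 1.13% in WT. Both genes were still expressed in gXlnRC, at levels that differed from WT by 16.1-fold and 12.9-fold in mean FPKM, and no gXlnRC library overlapped a WT library. Such a gap between the libraries of the strains was found for 22.7% of all tested genes in the higher direction and for 39.9% in the lower direction.

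**Figure D1:**
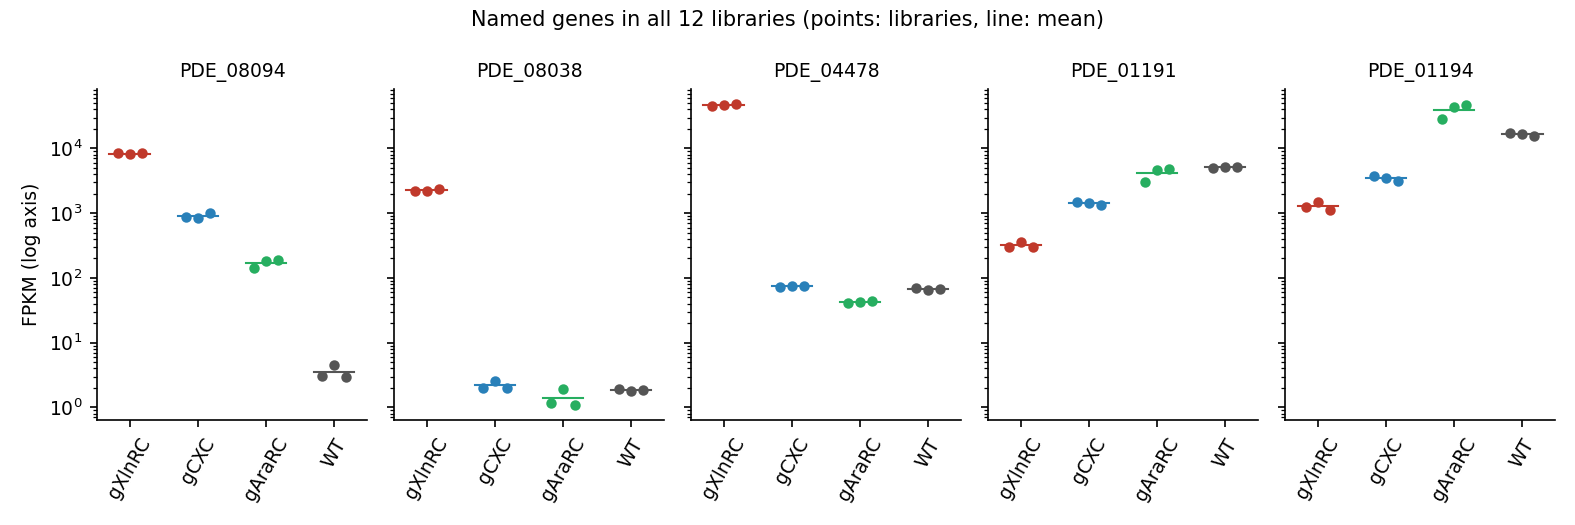
FPKM (log axis) of the 5 named genes in each library of gXlnRC, gCXC, gAraRC and WT, with points for libraries and a line for the mean of 3. PDE_08094 lies at 8163 to 8474 FPKM in gXlnRC and at 2.982 to 4.463 FPKM in WT, PDE_08038 and PDE_04478 stand high in gXlnRC alone, and PDE_01191 and PDE_01194 are lowest in gXlnRC.

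Across all tested genes, 4967 of 8959 passed an adjusted p below 0.05 (limma, 55.4%). Of these 1737 were higher in gXlnRC (19.4%) and 3230 lower (36.1%). This majority depends on how libraries are scaled: over all tested genes the median log2 change stood at -0.10 on the deposited values. Median-of-ratios scaling brought it to 0.006 and gave 2561 higher and 2398 lower genes. TPM scaling gave 2308 higher and 2467 lower, and quantile normalization 2421 and 2488. Most called changes were small, since the middle 90% of all changes lay between -1.07 and 0.78 on the log2 scale. The median standard error was 0.0901, so a change well under 2-fold could pass the test.

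Changes of at least 2-fold were called for 9.16% of the tested genes, 305 in the higher direction (3.40%) and 516 in the lower (5.76%). This excess of lower genes was smaller with the other scalings, which gave 362 higher and 415 lower genes (median-of-ratios), 349 and 426 (TPM), and 355 and 422 (quantile normalization). The larger the change, the more the higher genes prevailed. A 4-fold limit left 102 higher genes and 75 lower ones, and an 8-fold limit left 59 and 16. At least 16-fold, 39 genes were higher, and PDE_01191 was the only one lower. The count of 39 ran from 30 to 46 over the alternatives tried. The count of lower genes at that size ran from 0 to 12, the highest by voom on recovered reads. It was 0 with a pseudocount of 5, with each of the 3 other scalings, and without gXlnRC replicate 1, without gXlnRC replicate 3 or without WT replicate 3. At 4-fold, 81 genes were higher and 32 lower with a pseudocount of 5, 132 and 117 with a pseudocount of 0.1, and 136 and 116 by voom. Higher genes were therefore the more numerous at this limit in all of these, by a smaller margin in the last pair.

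**Figure D2:**
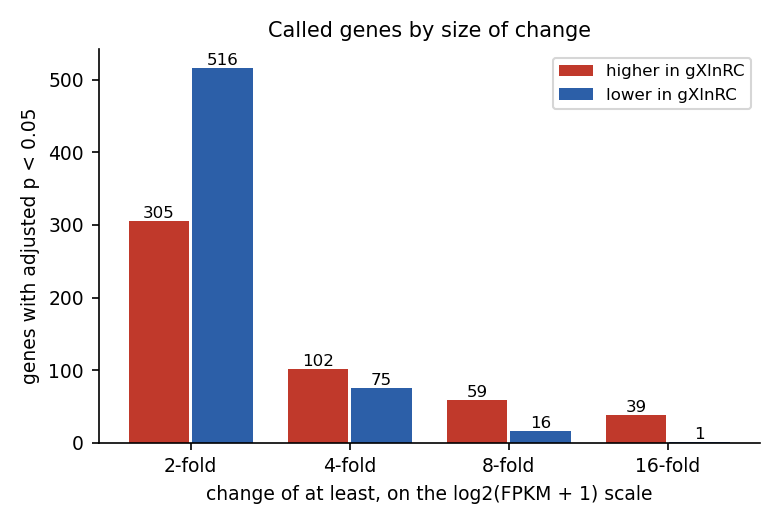
Number of genes with an adjusted p below 0.05 (limma) that were higher or lower in gXlnRC than in WT, by the smallest change counted (2-, 4-, 8- and 16-fold on the log2(FPKM + 1) scale). Lower genes outnumber higher ones at 2-fold (516 against 305), and higher ones outnumber lower ones at 16-fold (39 against 1).

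The 39 genes higher at least 16-fold, which were chosen by this contrast and are described without a test, ranged widely in WT. Their mean FPKM ran from 38.1 to 46759 (median gene 606) in gXlnRC and from 0.696 to 164 (median gene 6.99) in WT. In WT, 23 of them averaged under 10 FPKM. In gXlnRC, 33 of them averaged at least 100 FPKM and 15 at least 1000 FPKM. Together they held 9.60%, 9.47% and 9.91% of the summed FPKM of the gXlnRC libraries, against 0.0743%, 0.0723% and 0.0773% of the WT libraries. The same genes held 0.448% ± 0.0153 in gCXC and 0.218% ± 0.0240 in gAraRC (SD, n = 3).

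Among the tested genes, 3 had at least 10 FPKM in every gXlnRC library and under 1 FPKM in every WT library. In the opposite direction, 1 gene was under 1 FPKM in every gXlnRC library and had at least 10 FPKM in every WT library. Genes under 1 FPKM in all libraries of a strain were tested only where all 3 libraries of the other strain reached 1 FPKM, so these counts describe single genes and give no rate.

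**Figure D3:**
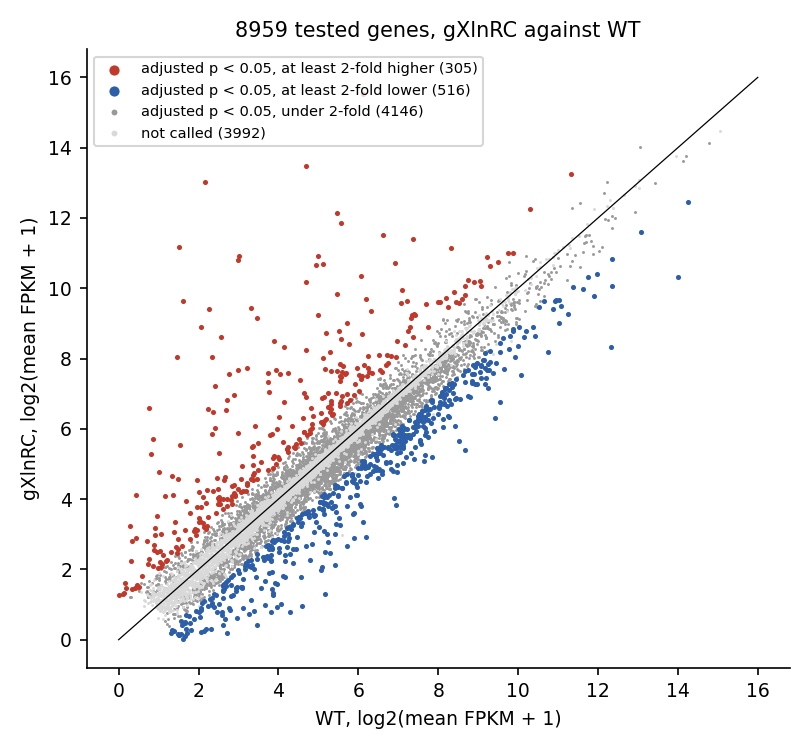
Mean level of each tested gene in gXlnRC (vertical axis) against WT (horizontal axis), both as log2(mean FPKM + 1), with the line of equality. Of the 305 genes called at least 2-fold higher, 102 were at least 4-fold higher, and of the 516 called at least 2-fold lower, 75 were at least 4-fold lower. The largest log2 change was 10.87 above the line and -4.01 below it.

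The 305 raised genes together took 16.1% ± 0.226 of the summed FPKM in gXlnRC and 1.90% ± 0.0844 in WT (SD, n = 3). The 516 lowered genes took 4.98% ± 0.150 in gXlnRC and 15.1% ± 0.835 in WT. In counted reads, the 305 genes held 19.2% ± 0.241 in gXlnRC and 3.26% ± 0.159 in WT, and the 516 held 4.92% ± 0.175 and 15.4% ± 0.735. A few transcripts made up part of this exchange of reads. The 5 genes that gained most held 6.63% ± 0.221 of the counted reads in gXlnRC and 0.358% ± 0.0502 in WT, and the 5 that lost most held 0.799% ± 0.0664 in gXlnRC and 3.51% ± 0.209 in WT (SD, n = 3). These sets were picked by the same values and carry no test.

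**Figure D4:**
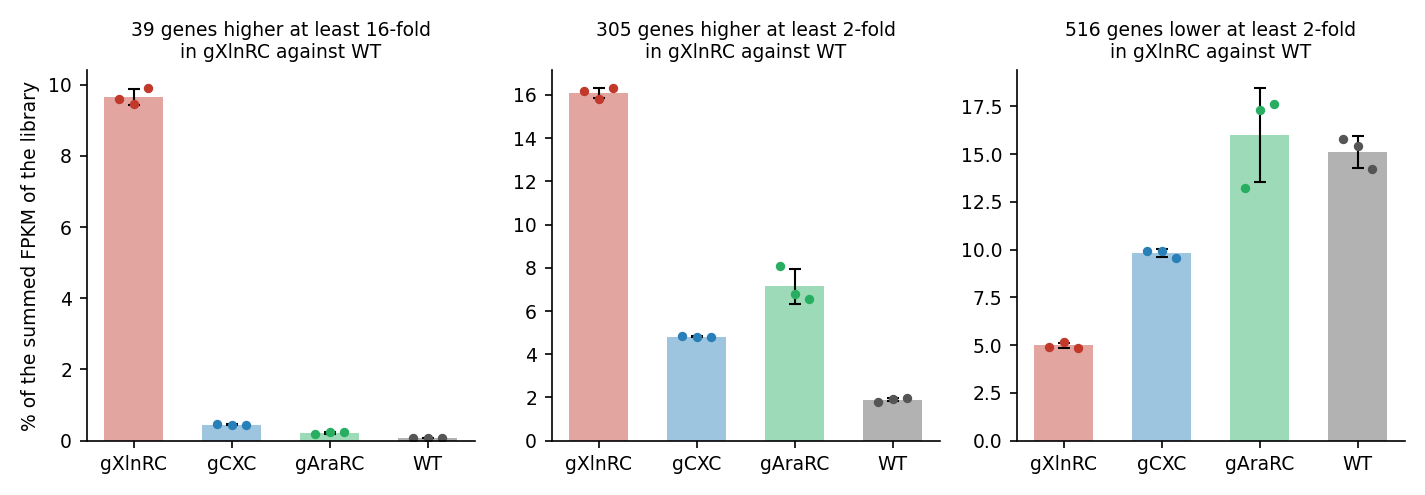
Percent of the summed FPKM of a library held by the genes raised 16-fold or more, raised 2-fold or more and lowered 2-fold or more in gXlnRC against WT, with points for libraries, bars for means and error bars of 1 SD (n = 3). The 39 genes of the left panel hold 9.66% in gXlnRC and 0.0746% in WT.

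The top of the transcriptome was partly replaced, with little change in how concentrated it was. Of the 50 most abundant genes of gXlnRC by mean FPKM, 37 were also among the 50 of WT, and of the 100 most abundant 70 were. The 50 most abundant genes of each strain held 33.2% ± 0.519 of its summed FPKM in gXlnRC and 32.1% ± 0.858 in WT (SD, n = 3). The 13 genes that entered the list had ranks from 52 to 8027 in WT, and 9 of them were called at least 2-fold higher. The 13 that left it had ranks from 55 to 480 in gXlnRC, and 8 of them were called at least 2-fold lower. Over all tested genes these calls made up 3.40% and 5.76%, but a gene enters or leaves the list by the same levels, so the counts carry no test.

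Levels in the other strains, which do not enter the contrast, were used to ask where in the range of expression the changes lay. Over all tested genes 55.4% were called, with 3.40% raised 2-fold or more and 5.76% lowered. Among 2485 genes that averaged under 10 FPKM over the 6 gCXC and gAraRC libraries, 43.3% were called. Of them 87 were raised 2-fold or more (3.5%) and 155 lowered (6.24%). Among 4873 genes at 10 to under 100 FPKM, 56.7% were called, with 137 (2.81%) and 221 (4.54%). Among 1456 genes at 100 to under 1000 FPKM, 70.0% were called, with 69 (4.74%) and 118 (8.1%). Of the 145 genes at 1000 FPKM and above, 74.5% were called, with 12 raised 2-fold or more and 22 lowered, which was 8.28% and 15.2% of them. The other strains shared part of the changes. The 75 genes lowered at least 4-fold in gXlnRC had median log2 changes of -2.39 there, -2.25 in gCXC and -2.53 in gAraRC. Single genes among them reached 2.62 in gCXC and 2.27 in gAraRC. The same WT libraries served to choose these genes and to compare every strain, so the medians carry no test. Sorted instead by WT level, which enters the contrast, 2282 genes under 10 FPKM held 139 raised (6.09%) and 88 lowered (3.86%) 2-fold or more. The 137 at 1000 FPKM and above held 2 (1.46%) and 28 (20.4%). The balance of raised and lowered genes at a level thus depended on the strains used to sort. The number of reads per gene moves with level too, and its part in the share called was not tested.

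On the deposited scaling, lowered genes tended to have short coding sequences. As recovered from the FPKM steps, the median coding length was 1191 nt for the 305 raised genes, 918 nt for the 516 lowered genes and 1170 nt for all tested genes. The median log2 change ran with length over all tested genes, from -0.26 in the fifth of shortest genes (36 to 579 nt) to 0.07 in the fifth of longest (1995 to 23634 nt). Of the 1797 shortest genes 47 were raised and 160 lowered 2-fold or more, and of the 1791 longest 41 were raised and 20 lowered. Over all tested genes 3.40% were raised and 5.76% lowered by that much. The comparison by length was not repeated with the other scalings, which gave fewer lowered genes. The part of length in the calls was not tested, and in these bulk libraries fewer cells of a kind and less RNA per cell cannot be told apart.

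Some changed genes had consecutive locus tags. Runs of at least 4 consecutive tags in which every gene was called at least 2-fold in 1 direction numbered 4 for higher genes (21 genes) and 7 for lower genes (35 genes). The numbers of higher and lower runs were 6 and 6 with median-of-ratios scaling, 5 and 6 with TPM, and 4 and 5 with quantile normalization. Most changed genes stood alone, with 210 single higher tags and 344 single lower tags. Tags are used here as a numbering, since genome positions are not used, and the runs are described without a test because they were chosen by the contrast.

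The strongest run held 6 tags, with PDE_08038 at position 5. In tag order its genes averaged 95.6, 3688, 567, 796, 2292 and 23.5 FPKM in gXlnRC, against 0.696, 46.2, 10.1, 2.05, 1.86 and 5.29 FPKM in WT. The first 5 rose by 5.68 to 9.65 on the log2 scale and the last by 1.98 (limma, highest adjusted p 1.17e-06). The second gene of the run had 3769, 3404 and 3891 FPKM in gXlnRC, against 50.6, 44.0 and 43.9 FPKM in WT, and took 0.587% of the reads in gXlnRC. In the same order the genes averaged 0.986, 90.1, 14.1, 2.94, 2.19 and 4.46 FPKM in gCXC and 5.18, 137, 24.3, 2.13, 1.40 and 2.99 FPKM in gAraRC. The levels of all 6 genes were thus higher in gXlnRC than in each of the other 3 strains.

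A run of 7 raised tags had a different pattern over the strains. Its genes averaged 7.09 to 127 FPKM in gXlnRC (median gene 24.0) and 1.03 to 51.4 FPKM in WT (median gene 1.51). They rose by 1.17 to 3.76 on the log2 scale (limma, highest adjusted p 2.79e-05). The same genes averaged 0.793 to 70.9 FPKM in gCXC (median gene 1.95) and 32.8 to 403 FPKM in gAraRC (median gene 115). Their levels in gXlnRC lay between those in gAraRC and those in WT. In the remaining raised runs, of 4 tags each, the median gene had 86.0 and 1062 FPKM in gXlnRC, 71.0 and 521 FPKM in gCXC, 20.5 and 1257 FPKM in gAraRC, and 10.3 and 431 FPKM in WT.

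The run of 5 lowered tags that holds PDE_01191 at position 1 and PDE_01194 at position 4 contained only well expressed genes. In tag order they averaged 319, 219, 308, 1281 and 1010 FPKM in gXlnRC, against 5127, 535, 868, 16508 and 3145 FPKM in WT. They fell by 1.29 to 4.01 on the log2 scale (limma, highest adjusted p 1.36e-04). In gCXC the same genes averaged 1414, 160, 67.2, 3452 and 221 FPKM, below WT at each position. In gAraRC they averaged 4131, 2196, 4231, 39503 and 11883 FPKM, above WT at all positions but the first.

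Other lowered runs consisted of genes with little RNA in the 3 engineered strains and up to 23.0 FPKM in WT. In runs of 7, 6, 5 and 4 such tags, the median gene had 0.113, 0.523, 0.724 and 0.666 FPKM in gXlnRC, against 2.15, 12.1, 7.69 and 7.38 FPKM in WT. In tag order the run of 6 ended shortly before the run of 7 began, so these runs may not be separate groups. The median gene of these runs had 0.177, 0.122, 0.0467 and 0.234 FPKM in gCXC and 0.327, 0.775, 0.503 and 0.488 FPKM in gAraRC. For these 22 genes it was WT that stood apart, with higher levels than each engineered strain, and all the strains were compared with the same 3 WT libraries. The last pair of lowered runs, of 4 tags each, had median genes at 7.47 and 4.63 FPKM in gXlnRC, 12.7 and 6.80 FPKM in gCXC, 1.5 and 28.5 FPKM in gAraRC, and 24.2 and 25.6 FPKM in WT.

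**Figure D5:**
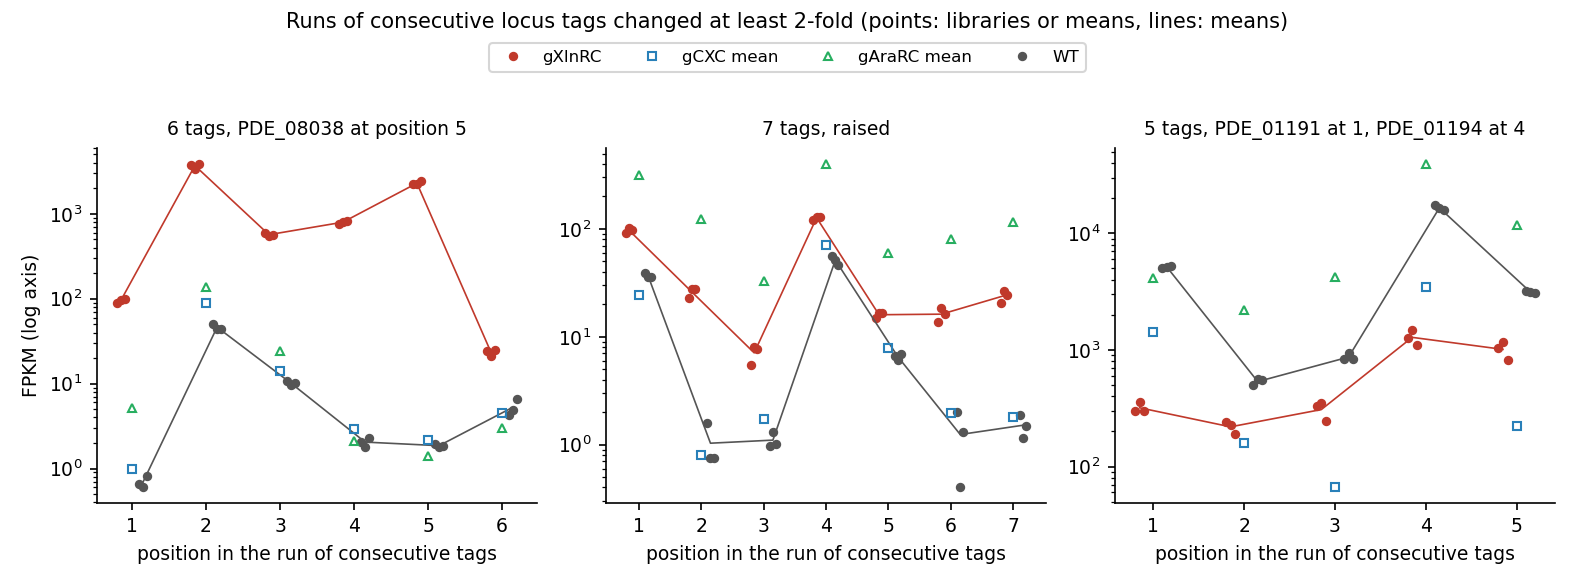
FPKM (log axis) along 3 runs of consecutive locus tags, with points for the libraries of gXlnRC and WT, lines through their means, and open symbols for the means of gCXC and gAraRC. In the run around PDE_08038 gXlnRC lies above all other strains, in the run of 7 gAraRC lies highest, and in the run with PDE_01194 gXlnRC lies below WT at each of 5 positions.

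The named genes were also compared directly between gXlnRC and the other engineered strains, in the same fit. In that fit 59.3% of tested genes differed between gXlnRC and gCXC and 72.9% between gXlnRC and gAraRC, and the share that differed from WT was 51.0% for gCXC and 76.5% for gAraRC. PDE_08094 was not silent in those strains, with 876.5, 855.0 and 990.6 FPKM in gCXC and 140.5, 185.2 and 190.3 FPKM in gAraRC. It was higher in gXlnRC than in gCXC by 3.20 ± 0.13 (limma, adjusted p = 1.43e-09) and than in gAraRC by 5.61 ± 0.13 on the log2 scale (limma, adjusted p = 5.20e-12).

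PDE_08038 stood near its WT level in both, with 2.015, 2.537 and 2.014 FPKM in gCXC and 1.153, 1.956 and 1.078 FPKM in gAraRC. Its log2 differences were 9.49 ± 0.12 from gCXC (limma, adjusted p = 1.61e-14) and 9.92 ± 0.12 from gAraRC (limma, adjusted p = 9.37e-15). PDE_04478 had 73.53, 75.66 and 73.72 FPKM in gCXC and 41.30, 42.79 and 44.68 FPKM in gAraRC. It was higher in gXlnRC than in gCXC by 9.28 ± 0.05 (limma, adjusted p = 3.35e-18) and than in gAraRC by 10.06 ± 0.05 (limma, adjusted p = 1.28e-18).

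PDE_01191 and PDE_01194 were lower in gXlnRC than in either engineered strain. PDE_01191 had 1483, 1423 and 1336 FPKM in gCXC and 3006, 4573 and 4813 FPKM in gAraRC, log2 differences of -2.15 ± 0.14 (limma, adjusted p = 1.48e-07) and -3.67 ± 0.14 (adjusted p = 5.33e-10). PDE_01194 had 3714, 3466 and 3175 FPKM in gCXC and 28732, 43337 and 46439 FPKM in gAraRC. Its log2 differences were -1.44 ± 0.16 (limma, adjusted p = 1.28e-05) and -4.92 ± 0.16 (adjusted p = 1.37e-10). Its level was thus lowest in gXlnRC and highest in gAraRC, and no library of one strain overlapped another strain's.

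The 39 genes raised at least 16-fold in gXlnRC moved less in the other strains. Their median log2 change against the shared WT libraries was 5.57 in gXlnRC, 1.20 in gCXC and 0.79 in gAraRC, where all tested genes had medians of -0.10, 0.00 and -0.35. In gCXC 25 of the 39, and in gAraRC 18, averaged at least 2 times the WT level, and 2 in each averaged at least 16 times that level. The mean was below WT for 2 of the 39 in gCXC and for 11 in gAraRC. In gAraRC the median tested gene was itself below WT (-0.35), so the 11 show no fall particular to these genes. The shares of all tested genes at these limits are not given here. Since the genes were chosen by their level in gXlnRC, these values describe them and carry no test.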

How the data were processed

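mRNA of 12 mycelial libraries of Penicillium oxalicum was sequenced with a strand-specific kit, per the labels' protocols. The authors deposited 1 table of FPKM values. Tools listed per the submitters' processing notes, without roles, are featureCounts 1.5.0-p1, HISAT2 2.0.0, DESeq2 and CASAVA 1.8. Not given in the sources used here were the genome build, annotation, strand setting and FPKM denominator, so overlapping genes and near-identical copies could share reads. Of 9979 tags, 0 matched the reference table at hand (another assembly), so no name or role was given to any tag.

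A model of group means with a trended prior variance was fitted in limma 3.58.1 (R 4.3.3) to log2 values (FPKM plus a pseudocount of 1) from the 12 libraries, leaving 8 residual degrees of freedom, for genes with at least 1 FPKM in at least 3 of the 6 gXlnRC and WT libraries. P-values were two-sided and adjusted over all 8959 genes (Benjamini-Hochberg), with calls made below 0.05. No value was rescaled. Named tags are the 2 highest and 2 lowest called changes without overlap and with a mean of at least 10 FPKM in either group, and the most abundant gene of gXlnRC. The rule also covered members of runs and further abundant genes, which are given without tags because no source names them. The members and lists were chosen with earlier results of these data known, and counts at 4-, 8- and 16-fold and the length comparison were added later.

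Read numbers, totals and coding lengths (steps of 3 nt) were recovered from the steps of the FPKM values, which were given to 4 decimals. Every tested gene received a length. Errors rest on 3 libraries per strain and the spread pooled over all strains. The fit and the recovery were also run on simulated data. The simulation changed few genes, gave every gene the same spread and set no shift in scaling. It is therefore no check of the number of genes called here. Libraries of a group differed by more than sampling noise (chi-square per gene of at least 9.34 where 1 is expected). None was therefore taken for the same library sequenced again, and the value cannot show that the cultures were separate. Separate cultures are implied by the series' wording only. Tables were made with Python 3.11.15, numpy 2.4.6 and pandas 2.3.3, and plots with matplotlib 3.10.9.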

Additional observations from a re-analysis of the deposited data

Results flagged for a closer look

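A pair of the named genes moved in opposite directions against WT in gXlnRC and gAraRC, with the direct difference between these strains past the threshold. PDE_04478 was higher in gXlnRC than in gAraRC by 10.06 on the log2 scale (limma, adjusted p = 1.28e-18), with changes against WT of 9.41 in gXlnRC and -0.65 in gAraRC. Its fall in gAraRC was under 2-fold, where all tested genes had a median of -0.35, so most of the difference was its rise in gXlnRC. With median-of-ratios scaling PDE_04478 in gXlnRC differed by 9.52 from WT and by 9.82 from gAraRC. PDE_01194 differed by -4.92 (adjusted p = 1.37e-10), with changes against WT of -3.70 in gXlnRC and 1.23 in gAraRC.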

How the results depend on the processing

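All 165 values of the named genes under alternatives kept their direction and their call, and PDE_08038 against WT ranged most, from 8.39 to 10.25 on the log2 scale. Over all tested genes the median log2 change came to -0.075 when the pseudocount was 5, 0.006 with median-of-ratios scaling, -0.01 with TPM and -0.011 with quantile normalization, and -0.113 to -0.083 without 1 library. The share of the summed FPKM in genes at least 2-fold higher was 18.8% in gXlnRC and 3.19% in WT with median-of-ratios, 18.7% and 3.16% with TPM, and 16.8% and 2.25% with quantile normalization, and without 1 library 15.9% to 17.7% and 1.83% to 2.61%. That in genes at least 2-fold lower was 4.12% and 13.5%, 4.23% and 13.7%, and 4.17% and 13.6% in the same order, and without 1 library 4.83% to 5.55% and 14.6% to 16.7%. Each setting chooses its own genes, which moves these shares. Leaving out 1 library gave 4398 to 4850 called genes, 1444 to 1806 of them higher and 2856 to 3113 lower, 297 to 340 at least 2-fold higher, 499 to 539 at least 2-fold lower, 4 to 5 higher runs and 6 to 8 lower runs. With a replicate block 4901 genes were called, 4796 of them shared. Same-numbered libraries showed no large shared deviation (correlations of -0.022, -0.098 and 0.017 for numbers 1 to 3). The value for gXlnRC replicate 1 with WT replicate 2 was 0.129. Whether same-numbered cultures were handled together cannot be settled by these values, since a small shared effect could go unseen. Counts within functional lists were not run, since no list could be formed.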
